A study of Mus musculus with 17 samples.

Results

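The genes described here are 10 early lymphoid program genes that multipotent progenitors can express: Dntt, Rag1, Il7r, Ebf1, Satb1, Ighm, Cd79a, Myl10, Notch1 and Ccr9. They were picked by symbol from a table of 35321 gene symbols. Of the 10 symbols, 9 were found and all 9 passed the filter on low counts, which left 14920 genes for testing. Ighm, the constant region of the immunoglobulin mu heavy chain, was not analysed here. The choice was made with earlier results of these data in view, among them Dntt and Myl10 in LPS at 72 h against 24 h, Myl10 in LPS with antibody at 24 h against PBS, and lower B-lymphoid marker sets after LPS. Those 3 gene values are therefore given without a p-value, and the direction of the B-lineage members after LPS is not independent of the choice.

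RNA sequencing of polyadenylated RNA was performed on hematopoietic stem and progenitor cells (HSPC), the blood-forming cells of the marrow, sorted by flow cytometry from wild-type C57BL/6J mice. The mice had received intraperitoneal phosphate-buffered saline (PBS, titled day 0, n = 5 libraries), lipopolysaccharide (LPS, a bacterial cell wall component) 24 h (n = 3) or 72 h (n = 3) before harvest, or LPS together with a blocking antibody to the interleukin-10 receptor 24 h (n = 3) or 72 h (n = 3) before harvest. No group received the antibody without LPS, and neither the surface markers of the sort nor the age of the mice was given in the sources used here. The labels do not say whether replicates came from separate mice, so p-values measure the spread between these libraries only. The statements of the dose differ in unit, 5 µg LPS and 100 µg antibody in the design text and the same figures in milligrams in the protocol, and no dose is assumed below.

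Lymphoid priming is the low expression of lymphocyte genes in progenitors that have not yet committed to a lineage. It is a feature of the Flt3-expressing multipotent progenitors and of the common lymphoid progenitors that follow them. Terminal transferase and the RAG recombinase assemble antigen receptor genes, the interleukin-7 receptor supports lymphocyte precursors, EBF1 sets up the B-cell program, and Notch1 signalling directs progenitors to the T lineage.

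Total counts per library ran from 10516722 to 16006001. The scaling factors ran from 0.947 to 1.12 except in LPS at 24 h replicate 1, at 0.799. HSPC markers were present in every group, with mean Kit between 290.4 and 399 normalised counts (CPM, scaled by library total) and mean Cd34 between 386 and 766 CPM. HSPC markers were lower in LPS at 24 h, where 6 of 10 were called lower and their summed level was 1042 to 1123 CPM against 1405 to 2010 CPM in PBS. Markers of other cells were present too and moved with the groups. The summed level of 8 macrophage markers was 236 to 2340 CPM in the PBS libraries, 29.5 to 42.5 in LPS at 24 h and 23.9 to 32.03 in LPS at 72 h. With antibody it was 14.8 to 118 CPM at 24 h and 16.2 to 300 CPM at 72 h. The sum of 8 erythroid markers was 182 to 323 CPM in PBS, 268 to 603 in LPS at 24 h and 5.56 to 90.4 in LPS at 72 h. In replicates 1, 2 and 3 with antibody it was 1411, 310 and 20.5 CPM at 24 h and 794, 138 and 7.355 CPM at 72 h. In LPS at 24 h, 6 of 7 plasma cell markers, 7 of 9 plasmacytoid dendritic cell markers, 4 of 10 T and NK cell markers and all 8 macrophage markers were called lower, and 1 plasmacytoid dendritic cell marker was called higher. Over all genes tested, 18.5% were called lower there. Summed levels in PBS and in LPS at 24 h were 457 to 1435 and 186 to 303 CPM for plasma cell markers, 713 to 1150 and 457 to 670.4 CPM for plasmacytoid dendritic cell markers, and 132 to 288 and 115 to 265 CPM, with overlap, for T and NK cell markers. The part of other cells in the results below was not tested. In bulk RNA, fewer cells of a type and less RNA per cell cannot be told apart.

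Promoter sequences are shown for Dntt and Myl10, the members with the largest changes in LPS at 24 h, and for Rag1, which acts in the same recombination reaction as Dntt. Each is the 250 bases upstream of a RefSeq start site (GRCm38.p6), in a window with no GENCODE M21 exon, read 5′ to 3′ on the gene's strand. Capitals mark a match, on either strand, to any of 5 motifs: CAGNTG (the E protein E-box), CCCNNGGG (the EBF core), TGGGAA (the Ikaros core), TGTTTAC (forkhead) and AGGAAGT (PU.1). The 3 windows lie at chr19:41029025-41029274 on the plus strand for Dntt, chr2:101649533-101649782 on the minus strand for Rag1, and chr5:136692896-136693145 on the plus strand for the first of 3 Myl10 start sites.
Dntt: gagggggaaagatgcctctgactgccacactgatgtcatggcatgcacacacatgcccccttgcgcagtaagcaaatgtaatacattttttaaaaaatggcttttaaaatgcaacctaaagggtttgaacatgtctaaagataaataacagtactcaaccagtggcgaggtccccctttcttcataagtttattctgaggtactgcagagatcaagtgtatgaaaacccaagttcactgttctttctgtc
Rag1: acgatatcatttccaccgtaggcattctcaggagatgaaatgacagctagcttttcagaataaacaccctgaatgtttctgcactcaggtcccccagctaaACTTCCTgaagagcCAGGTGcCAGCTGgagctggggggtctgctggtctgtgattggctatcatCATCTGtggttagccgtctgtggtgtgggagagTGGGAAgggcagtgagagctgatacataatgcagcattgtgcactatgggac
Myl10: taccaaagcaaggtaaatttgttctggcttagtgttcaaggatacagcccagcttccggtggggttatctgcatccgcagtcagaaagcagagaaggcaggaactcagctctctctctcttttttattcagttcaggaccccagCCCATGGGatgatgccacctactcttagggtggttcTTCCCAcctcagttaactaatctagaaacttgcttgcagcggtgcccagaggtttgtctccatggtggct
The Rag1 window held 3 E-boxes, 1 Ikaros core and 1 PU.1 match. The Myl10 window held 1 EBF core and 1 Ikaros core, and the Dntt window held none of the 5 motifs. Among 32851 RefSeq windows of the same length, 44.8% held the E-box, 11.8% the EBF core, 21.6% the Ikaros core, 3.17% the forkhead motif and 7.69% the PU.1 motif. RefSeq windows were found for 9 of the 10 members, 16 windows in all, and a match is a description of the letters only.

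In LPS at 24 h all 9 members fell against PBS (edgeR quasi-likelihood test, adjusted p below 0.05), and for each of them the 3 LPS libraries lay below all 5 PBS libraries. Over all genes tested, 18.5% were called lower in this comparison and 22.2% had LPS libraries all below the PBS libraries. The median log2 change of the members was -2.63, against -0.03 over all genes tested. In LPS at 72 h none of the 9 passed the test against PBS. At an unadjusted p below 0.05 there was 1 of 9 (Ccr9), beside 1702 of the 14920 genes tested. In LPS with antibody at 72 h, 2 of the 9 were still called lower than PBS, beside 6.43% of all genes, and all 9 estimates were below 0.

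**Figure D1:**
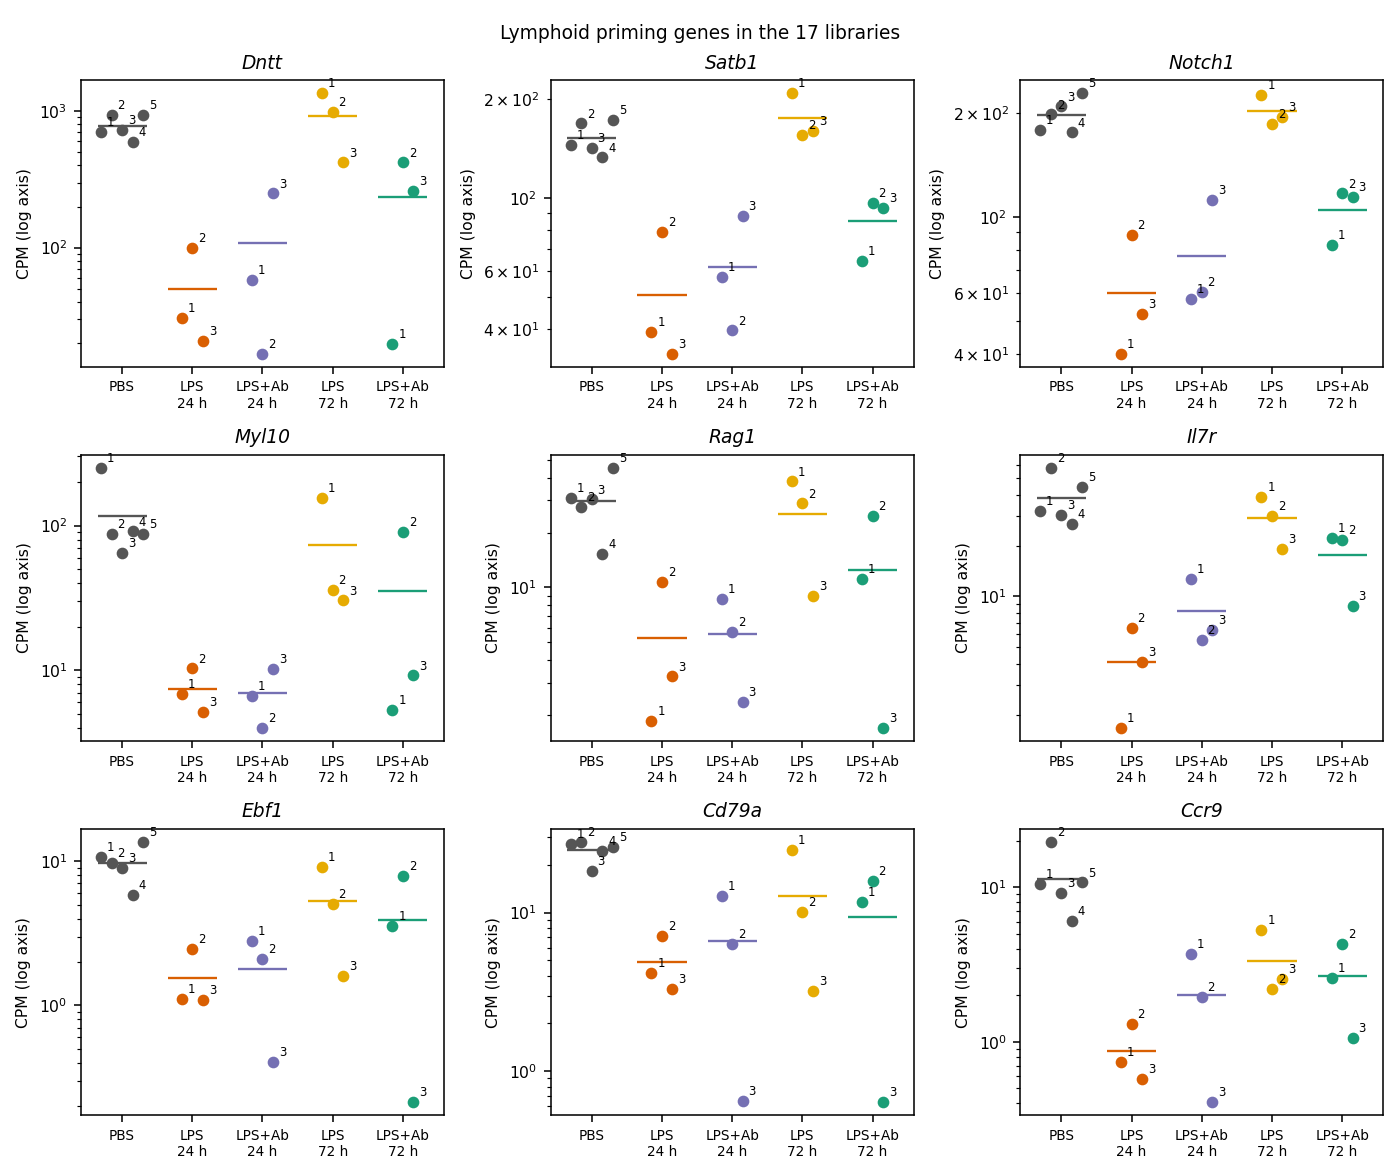
Level of each of the 9 members in all 17 libraries, in CPM on a log axis, with 1 point per library and a bar at the mean of each group. The LPS 24 h points lie below all PBS points in every panel, and the libraries of the antibody groups spread widely for Dntt, Ebf1, Cd79a and Myl10.

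The 2 recombination enzymes are described first. Dntt (chr19:41029275-41059525, plus strand, GRCm38), which encodes terminal deoxynucleotidyl transferase, the enzyme that adds untemplated bases at antigen receptor joints, had the highest level of the 9 per kilobase of exon in PBS (341.5 ± 65.3 CPM per kb, SD, n = 5). Its level in the PBS libraries was 709.9, 938, 731, 598 and 936 CPM. In LPS at 24 h it was 30.5, 98.7 and 20.5 CPM, and in LPS with antibody at 24 h 57.6, 16.6 and 249 CPM. None of these 6 libraries reached the lowest PBS library, and replicate 3 of the antibody group stood well above the other 5. In LPS at 72 h the level was 1354, 988 and 421.0 CPM, a range that took in the whole PBS range. In LPS with antibody at 72 h it was 19.7, 420.8 and 259 CPM, all below every PBS library. The highest of these 3 was nearly level with the lowest library of LPS at 72 h.

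The Dntt change in LPS at 24 h against PBS was -3.97 on the log2 scale (SE 0.972, edgeR adjusted p = 0.00567), and it passed in every fit that left out 1 library. With antibody at 24 h it was -2.86 (SE 0.911, edgeR adjusted p = 0.0342), and the call was lost without any 1 of PBS replicates 2, 3 and 5 or antibody replicates 1 and 2 (edgeR adjusted p 0.0518 to 0.118). From 24 h to 72 h of LPS the estimate was 4.20 (SE 1.02), given without a test. The difference between LPS at 72 h and PBS did not pass (0.23, SE 0.791, 95% interval -1.32 to 1.79, edgeR adjusted p = 0.93). For LPS with antibody at 72 h the estimates were -1.75 against PBS (edgeR adjusted p = 0.174) and -1.98 against LPS at 72 h (SE 0.924, edgeR adjusted p = 0.149).

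Rag1 (chr2:101638282-101649501, minus strand), the catalytic subunit of the V(D)J recombinase, stood at 30.8, 27.6, 30.35, 15.2 and 45.4 CPM in PBS. It was at 1.85, 10.7 and 3.25 CPM in LPS at 24 h and at 8.61, 5.70 and 2.36 CPM in LPS with antibody at 24 h. It was at 38.1, 28.9 and 8.996 CPM in LPS at 72 h and at 11.2, 24.6 and 1.70 CPM with antibody at 72 h. All 6 libraries of 24 h lay below the lowest PBS library, and at 72 h both groups overlapped PBS, with replicate 3 the lowest of each. The change in LPS at 24 h was -2.49 (SE 0.759, edgeR adjusted p = 0.0181), lost without LPS replicate 1 (0.0906) or 3 (0.0738). With antibody at 24 h it was -2.42 (SE 0.756, edgeR adjusted p = 0.0315), lost without any 1 of PBS replicates 2, 3 and 5 or antibody replicates 2 and 3 (0.0508 to 0.105). The annotated span of Rag1 overlaps that of B230118H07Rik on the same strand, so part of its count is uncertain.

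Rag2, the partner of Rag1 and no member, had a mean of 16.6 CPM in PBS, 2.12 in LPS at 24 h and 21.6 in LPS at 72 h. It fell in LPS at 24 h by 2.96 on the log2 scale (SE 0.648, edgeR adjusted p = 0.00298) and rose from 24 h to 72 h of LPS by 3.33 (SE 0.688, edgeR adjusted p = 0.00239), and both calls held in every fit that left out 1 library. Of 13 tested genes of V(D)J joining and DNA end joining, Rag2 was the only one called in LPS at 24 h, beside 18.5% of all genes called lower. The median change of the list was -0.04. 

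Il7r (chr15:9505788-9530176, minus strand) encodes the alpha chain of the interleukin-7 receptor, through which lymphocyte precursors receive survival signals. Its level was 31.97, 57.8, 30.2, 26.9 and 44.4 CPM in PBS, and 1.67, 6.52 and 4.08 CPM in LPS at 24 h. In LPS with antibody at 24 h it was 12.7, 5.545 and 6.34 CPM. The 2 groups of 24 h overlapped each other by a narrow margin and lay wholly below PBS. In LPS at 72 h it was 38.8, 29.8 and 19.1 CPM, which overlapped PBS, and with antibody at 72 h it was 22.3, 21.5 and 8.84 CPM, below every PBS library.

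The Il7r change was -3.20 in LPS at 24 h (SE 0.477, edgeR adjusted p = 0.000487) and -2.21 in LPS with antibody at 24 h (SE 0.447, edgeR adjusted p = 0.00577). It rose by 2.81 from 24 h to 72 h of LPS (SE 0.494, edgeR adjusted p = 0.000837). These 3 calls held in every fit that left out 1 library. With antibody at 72 h the estimate against PBS was -1.13 (SE 0.42, edgeR adjusted p = 0.0803), which passed with DESeq2 (0.0318) and limma voom (0.0361). Among 11 other genes of the interleukin-7 receptor pathway, 2 were called in LPS at 24 h, both lower, a share near the 18.5% of all genes called lower: the kinase Jak1 (-0.42, edgeR adjusted p = 0.0198) and the feedback inhibitor Cish (-0.93, edgeR adjusted p = 0.0222). Jak1 lost its call without PBS replicate 5 (0.0559) or LPS replicate 1 (0.126), and Cish without PBS replicate 5 (0.0519), LPS replicate 1 (0.0977) or LPS replicate 3 (0.0547).

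The members include 2 transcription factors. Ebf1 (chr11:44617317-45008091, plus strand), a factor needed for B-lineage specification, was at 10.7, 9.76, 9.01, 5.825 and 13.6 CPM in PBS. It was at 1.11, 2.47 and 1.08 CPM in LPS at 24 h and at 2.80, 2.11 and 0.4065 CPM with antibody at 24 h. It was at 9.07, 5.07 and 1.61 CPM in LPS at 72 h and at 3.53, 7.94 and 0.212 CPM with antibody at 72 h. Both 24 h groups lay below PBS and both 72 h groups overlapped it. The lowest value rested on 3 counts, which is the floor used here, with an exact Poisson interval of 0.0437 to 0.62 CPM that covers counting error only. Ebf1 changed by -2.64 in LPS at 24 h (SE 0.812, edgeR adjusted p = 0.019), lost without LPS replicate 1 (0.085) or 3 (0.073). With antibody at 24 h it changed by -2.45 (SE 0.801, edgeR adjusted p = 0.0378), lost without any 1 of PBS replicates 1, 2, 3 and 5 or antibody replicates 2 and 3 (0.0558 to 0.11).

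Satb1 (chr17:51736187-51833290, minus strand), a chromatin organizer expressed in lymphoid progenitors and thymocytes, had a narrow spread in PBS, at 145, 169, 142, 133 and 173 CPM. In LPS at 24 h it was at 39.1, 79.1 and 33.6 CPM and with antibody at 24 h at 57.6, 39.6 and 88.3 CPM. In LPS at 72 h it was at 208, 156 and 160.2 CPM and with antibody at 72 h at 64.6, 96.8 and 93.4 CPM. Thus 3 of the 4 treated groups lay wholly below PBS, and only LPS at 72 h overlapped it. The antibody group of 72 h also lay wholly below LPS at 72 h.

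Satb1 fell by 1.59 in LPS at 24 h (SE 0.287, edgeR adjusted p = 0.00108) and rose by 1.79 from 24 h to 72 h of LPS (SE 0.31, edgeR adjusted p = 0.000776), and both calls held without any 1 library. With antibody at 24 h it fell by 1.30 (SE 0.283, edgeR adjusted p = 0.00738), with the call lost without antibody replicate 2 (0.0509). It was lower with antibody than without at 72 h, the log2 difference being -1.04 (SE 0.303, edgeR adjusted p = 0.0315). That call was lost without LPS replicate 1 or 2 or any 1 antibody replicate (0.0503 to 0.128). Against PBS the antibody group of 72 h gave -0.84 (SE 0.277, edgeR adjusted p = 0.054). This passed with upper-quartile scaling, DESeq2, only the groups compared or limma voom (adjusted p 0.0167 to 0.0481).

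Notch1 (chr2:26457903-26516663, minus strand), the receptor that starts T-lineage development in response to ligands of stromal cells, followed the same order of groups as Satb1. It was at 178, 198, 209, 175 and 228 CPM in PBS, at 40.05, 88.5 and 52.2 CPM in LPS at 24 h, and at 57.8, 60.7 and 112 CPM with antibody at 24 h. It was at 226, 186 and 195 CPM in LPS at 72 h and at 83.0, 117 and 114 CPM with antibody at 72 h. All groups but LPS at 72 h lay below every PBS library, and the 72 h groups did not overlap each other. Part of its count is uncertain, since 2 opposite-strand transcripts overlap it and the strand setting of the counting was not given in the sources used here.

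Notch1 fell by 1.71 in LPS at 24 h (SE 0.258, edgeR adjusted p = 0.000516) and by 1.37 with antibody at 24 h (SE 0.254, edgeR adjusted p = 0.00454), and it rose by 1.75 from 24 h to 72 h of LPS (SE 0.277, edgeR adjusted p = 0.000463). These 3 calls held without any 1 library. LPS at 72 h gave an estimate of 0.03 against PBS. The antibody group of 72 h was lower than PBS, by -0.92 (SE 0.248, edgeR adjusted p = 0.0279), and lower than LPS at 72 h, by -0.95 (SE 0.271, edgeR adjusted p = 0.0288). The first call was lost without any 1 of PBS replicates 2, 3 and 5 or antibody replicates 1 and 3 (0.0531 to 0.11), and the second without any 1 LPS replicate or antibody replicate 1 (0.0512 to 0.12).

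Of 20 other tested Notch pathway genes, 7 were called lower and 2 higher in LPS at 24 h, where 18.5% of all genes were called lower, with a list median of -0.48. The coactivators Maml3 (-1.57, edgeR adjusted p = 0.000774) and Maml2 (-2.08, edgeR adjusted p = 0.00109) and the Notch regulator Dtx1 (-2.09, edgeR adjusted p = 0.00633) fell, and these calls held without any 1 library. Notch2 fell by 0.70 (edgeR adjusted p = 0.0174), a call lost without LPS replicate 1 (0.119). From 24 h to 72 h of LPS, 4 of the 20 rose and 1 fell, the rises being a share near the 14.7% of all genes called higher, with Maml3 at 1.30 (edgeR adjusted p = 0.0036) and Maml2 at 1.72 (edgeR adjusted p = 0.0048) among those that rose. None of the 20 was called between the 72 h groups.

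Cd79a (chr7:24897381-24902197, plus strand) encodes the Ig-alpha chain through which the pre-B and B cell receptors signal. It was at 27.0, 27.9, 18.2, 24.4 and 25.9 CPM in PBS, at 4.17, 7.14 and 3.32 CPM in LPS at 24 h, and at 12.8, 6.325 and 0.650 CPM with antibody at 24 h. It was at 24.7, 10.1 and 3.22 CPM in LPS at 72 h and at 11.6, 15.9 and 0.6365 CPM with antibody at 72 h. Every group but LPS at 72 h lay below PBS, and replicate 3 was the lowest library of all 4 treated groups. Its change in LPS at 24 h was -2.34 (SE 0.859, edgeR adjusted p = 0.0427), and the call was lost without any 1 of the 8 libraries compared (0.0553 to 0.138). With antibody at 24 h it was -1.90 (SE 0.834, edgeR adjusted p = 0.106). Without antibody replicate 3 alone it was -1.33 (edgeR adjusted p = 0.248), and with the libraries numbered 3 of all LPS groups left out, a setting chosen after seeing the data, it was -1.35 (edgeR adjusted p = 0.0303).

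Of 13 other B-precursor genes named, 11 were tested and all 11 estimates were below 0 in LPS at 24 h, with a median of -2.19. Of the 11, 5 were called lower, beside 18.5% of all genes. Called genes were the adaptor Blnk (-3.02, edgeR adjusted p = 0.000878), Fcrla (-3.12, edgeR adjusted p = 0.00303), the kinase Blk (-3.62, edgeR adjusted p = 0.0103) and the coactivator Pou2af1 (-2.49, edgeR adjusted p = 0.0151). Blk lost its call without LPS replicate 1 (0.0504), and Pou2af1 without LPS replicate 1 (0.0772) or 3 (0.0628). The mature B markers moved as well, with 3 of 6 tested called lower in LPS at 24 h, beside the same 18.5% of all genes. Their summed level was 386 to 651 CPM in PBS and 242 to 275 CPM in LPS at 24 h. Whether B-lineage cells within the sort set the level of Ebf1 and Cd79a was not tested.

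Myl10 (chr5:136693146-136701094, plus strand), a myosin regulatory light chain described in precursor lymphocytes, varied most in PBS, at 251.5, 87.0, 64.4, 90.95 and 87.9 CPM. It was at 6.86, 10.3 and 5.17 CPM in LPS at 24 h and at 6.65, 3.98 and 10.2 CPM with antibody at 24 h. It was at 154, 36.1 and 30.35 CPM in LPS at 72 h and at 5.30, 90.6 and 9.19 CPM with antibody at 72 h. The 6 libraries of 24 h were all far below the lowest PBS library, and at 72 h each group reached into the PBS range through a single library. Myl10 fell by 3.97 in LPS at 24 h (SE 0.926, edgeR adjusted p = 0.00434), a call kept without any 1 library. The estimate with antibody at 24 h was -4.07 (SE 0.933), and from 24 h to 72 h of LPS it was 3.30 (SE 0.938), both given without a test.

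With antibody at 72 h the Myl10 result turned on 1 library. The estimate was -1.74 against PBS (edgeR adjusted p = 0.152) and -1.08 against LPS at 72 h (edgeR adjusted p = 0.403). Without antibody replicate 2, the one at 90.6 CPM, these became -3.97 (edgeR adjusted p = 0.0097) and -3.29 (edgeR adjusted p = 0.0159).

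Ccr9 (chr9:123678439-123784330, plus strand), a chemokine receptor that guides progenitors to the thymus and also marks plasmacytoid dendritic cells, was the only member with all 3 libraries of LPS at 72 h below every PBS library, a pattern shown by 7.01% of all genes tested. It was at 10.49, 19.7, 9.24, 6.08 and 10.7 CPM in PBS, at 0.742, 1.305 and 0.574 CPM in LPS at 24 h, and at 3.71, 1.95 and 0.4065 CPM with antibody at 24 h. It was at 5.315, 2.197 and 2.56 CPM in LPS at 72 h and at 2.61, 4.297 and 1.06 CPM with antibody at 72 h. All 4 treated groups therefore lay below PBS. The smallest of these values rest on 5 to 9 counts.

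Ccr9 fell by 3.67 in LPS at 24 h (SE 0.662, edgeR adjusted p = 0.00107), a call kept without any 1 library, and by 2.45 with antibody at 24 h (SE 0.603, edgeR adjusted p = 0.0119), lost without antibody replicate 2 (0.0598). It rose by 1.92 from 24 h to 72 h of LPS (SE 0.68, edgeR adjusted p = 0.0419), lost without LPS 24 h replicate 1 or 3 or LPS 72 h replicate 1 or 3 (0.0568 to 0.171). In LPS at 72 h against PBS the estimate was -1.75 (SE 0.577, edgeR adjusted p = 0.28), and limma voom called it (0.0158). With antibody at 72 h it was lower than PBS, by -2.09 (SE 0.591, edgeR adjusted p = 0.0328), a call lost without any 1 of PBS replicates 2, 3 and 5 or antibody replicates 1 and 3 (0.0509 to 0.115). Siglech, a marker of plasmacytoid dendritic cells, had group means of 26.1 CPM in PBS, 1.64 in LPS at 24 h, 6.95 with antibody at 24 h, 10.7 in LPS at 72 h and 5.81 with antibody at 72 h. The part of such cells in the Ccr9 level was not tested, and Ccr9 overlaps Slc6a20a and Lztfl1 on the opposite strand and Gm17200 on its own.

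**Figure D2:**
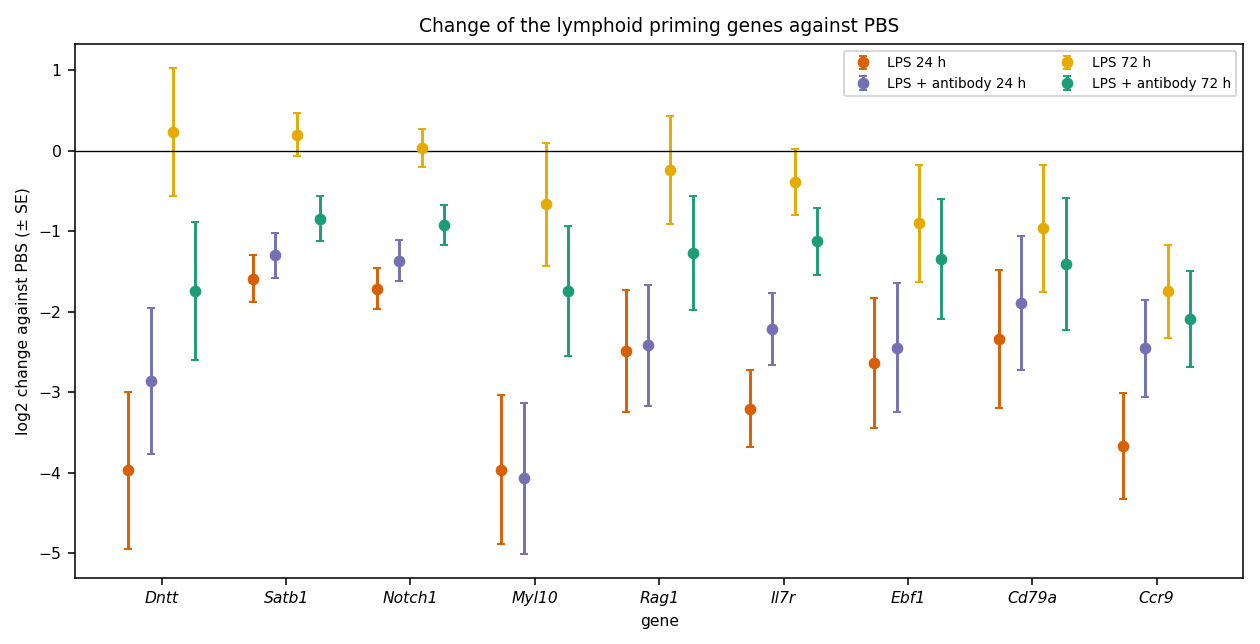
Log2 change against PBS of the 9 members in each of the 4 treated groups, from the edgeR fit of all genes, with bars of ± 1 SE. All 9 estimates are below 0 in LPS at 24 h and with antibody at both times, while in LPS at 72 h they run from -1.75 for Ccr9 to 0.23 for Dntt and none passed the test.

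Side by side, the 4 treated groups gave different counts against the same PBS libraries, which all of these comparisons share. In LPS with antibody at 24 h, 7 of the 8 members other than Myl10 were called lower, and all 8 had libraries wholly below PBS, where 12.5% of all genes were called lower and 16.7% did not overlap in that direction. With antibody at 72 h, Notch1 and Ccr9 were called, and 6 members had libraries wholly below PBS (Dntt, Il7r, Satb1, Cd79a, Notch1 and Ccr9). The background there was 6.43% called lower and 13.6% without overlap in that direction. In LPS at 72 h, 0.0201% of all genes were called in either direction, so the count of 0 members stands beside 3 calls in the whole table.

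Most members were higher at 72 h of LPS than at 24 h. Of the 7 tested, 5 rose (Rag1, Il7r, Satb1, Notch1 and Ccr9), where 14.7% of all genes were called higher. The libraries of 4 of the 7 did not overlap, against 22.4% of all genes with 72 h libraries all higher. Rag1 rose by 2.25 (SE 0.798, edgeR adjusted p = 0.0427), a call lost without LPS 24 h replicate 1 or 3 or LPS 72 h replicate 1 or 2 (0.0903 to 0.14). Ebf1 (1.73, edgeR adjusted p = 0.133) and Cd79a (1.37, edgeR adjusted p = 0.258) did not pass. With the libraries numbered 3 of the LPS groups left out, a setting chosen after they were seen to be lowest for both genes at 72 h, these passed at 1.94 (edgeR adjusted p = 0.0239) and 1.60 (edgeR adjusted p = 0.0261), and Ccr9 lost its call (1.83, edgeR adjusted p = 0.0577). Between the 2 antibody groups, 24 h and 72 h, none of the 9 was called and 2 were at an unadjusted p below 0.05. edgeR called 0% of all genes in that comparison, with 635 at an unadjusted p below 0.05 and 2 called by DESeq2. All 9 estimates lay above 0, between 0.36 and 2.33, and 2 were below 0 without antibody 24 h replicate 3 or antibody 72 h replicate 2.

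The antibody was compared with LPS alone at each time. At 24 h edgeR called none of the 9 members and 0% of all genes, with 0 members and 273 genes at an unadjusted p below 0.05, and DESeq2 called 1 gene. The 9 estimates ran from -0.10 to 1.21, with 1 below 0, and leaving out 1 library gave 0 to 4 below 0 (4 without antibody replicate 1 or 3, 3 without LPS replicate 3). At 72 h Satb1 and Notch1 were called lower with antibody, beside 6.48% of all genes called lower. Dntt, Satb1 and Notch1 had no overlap between the 72 h groups, a pattern in this direction in 16.1% of all genes. All 9 estimates at 72 h were below 0, and this fell to 5 without LPS replicate 1 and to 6 without antibody replicate 3.

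Whether the antibody difference itself changed from 24 h to 72 h was tested as an interaction. None of the 9 members passed in edgeR, where 6.35% of all genes were called in either direction. At an unadjusted p below 0.05 there were 4 of the 9, beside 3616 of the 14920 genes tested. All 9 estimates were below 0. Without LPS 72 h replicate 1 only 6 were below 0, and without antibody 24 h replicate 1 only 8. The members nearest to the threshold were Notch1 (-1.30, SE 0.383, edgeR adjusted p = 0.0546) and Satb1 (-1.33, SE 0.428, edgeR adjusted p = 0.0734), followed by Il7r (-1.73, edgeR adjusted p = 0.124) and Dntt (-3.09, edgeR adjusted p = 0.157). DESeq2 called Notch1 (adjusted p = 0.0128) and Satb1 (adjusted p = 0.0243). A difference in the antibody's effect between the times was not established for any member by edgeR.

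The other genes of early lymphoid progenitors followed the groups in which the members were low. Of 12 such genes tested, 8 fell and 0 rose in LPS at 24 h, beside 18.5% of all genes called lower, with a median of -1.47. They include the cytokine receptor Flt3 (-2.45, edgeR adjusted p = 0.00113), the lymphotoxin subunit Ltb (-2.36, edgeR adjusted p = 0.000798), Lax1 (-2.94, edgeR adjusted p = 0.000487) and Cnn3 (-2.02, edgeR adjusted p = 0.000925). From 24 h to 72 h of LPS 10 of the 12 rose, beside 14.7% of all genes, among them Cnn3 (2.46, edgeR adjusted p = 0.000425), Ltb (2.54, edgeR adjusted p = 0.000677) and Flt3 (2.60, edgeR adjusted p = 0.00109). The calls of these named genes all held without any 1 library. Among the others, Cd27 and Tespa1 each lost their call in 1 of 8 fits in LPS at 24 h. From 24 h to 72 h of LPS, Ly6d lost its call in 3 of 6 fits and Cd27 in 1 of 6. With antibody at 24 h 6 of the 12 fell against PBS, beside 12.5% of all genes called lower. Among them Lax1 fell by 2.29 (edgeR adjusted p = 0.00408), a call that held without any 1 library.

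At 72 h, 4 of these 12 genes were lower with antibody than with LPS alone, beside 6.48% of all genes called lower. The same number were called in the interaction, beside 6.35% of all genes called in either direction. Ltb changed by -1.84 between the 72 h groups (SE 0.418, edgeR adjusted p = 0.0103), lost without LPS replicate 1 (0.0708). In the interaction Ltb gave -2.65 (SE 0.593, edgeR adjusted p = 0.0188), lost without antibody 24 h replicate 1 (0.0527). Flt3 means were 445.5 CPM in PBS, 81.6 in LPS at 24 h, 121 with antibody at 24 h, 497 in LPS at 72 h and 193 with antibody at 72 h, which is the same order of groups as that of Dntt. Other markers were lower with antibody at 72 h too, with 5 of 9 plasmacytoid dendritic cell markers called lower against LPS alone, beside 6.48% of all genes.

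Among 19 other lymphoid transcription factors, 8 fell and 1 rose in LPS at 24 h, beside 18.5% of all genes called lower, with a median of -1.03. Gata3 (-2.01, edgeR adjusted p = 0.0023), Sox4 (-1.13, edgeR adjusted p = 0.00383) and Foxo1 (-1.25, edgeR adjusted p = 0.00472) fell. Id1, which encodes an inhibitor of E proteins, rose by 2.15 (edgeR adjusted p = 0.00156). From 24 h to 72 h of LPS 7 rose, beside 14.7% of all genes called higher, and 1 fell. Sox4 rose by 1.24 and Mef2c by 1.00, and Id1 changed by -1.95 (edgeR adjusted p = 0.00794). The 7 calls named here over these 2 comparisons held without any 1 library. The other rises from 24 h to 72 h of LPS, Gata3 among them, each lost their call in 1 to 4 of 6 fits. At 72 h with antibody against LPS alone, 2 of the 19 were lower, beside 6.48% of all genes called lower, and 1 was higher. Each of the 3 lost its call without at least 4 of the 6 libraries in turn.

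**Figure D3:**
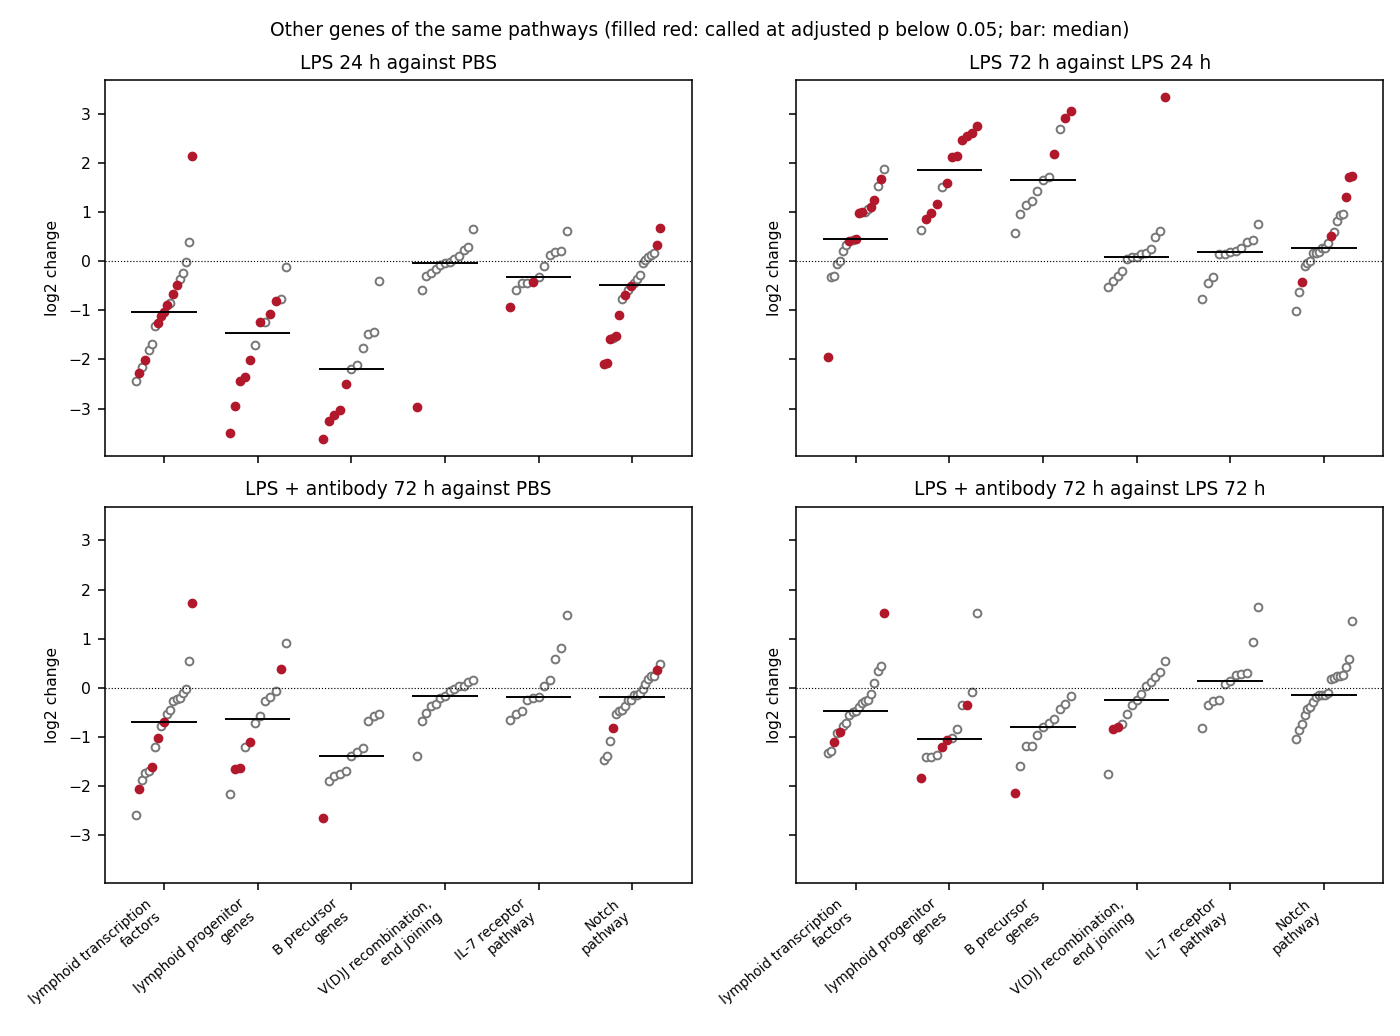
Log2 change of each tested gene of 6 lists of other lymphoid genes in 4 comparisons, 1 point per gene, filled red where called and with a bar at the median of the list. Of 12 lymphoid progenitor genes, 8 are called lower in LPS at 24 h against PBS and 10 are called higher from 24 h to 72 h of LPS.

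Within a group the members did not vary as one. Over the 17 libraries, deviations of log2 CPM from the group mean correlated at r = 0.85 between Dntt and Satb1, 0.87 between Satb1 and Notch1 and 0.75 between Dntt and Notch1. A different set, Rag1, Ebf1 and Cd79a, correlated at r = 0.85 to 0.95, and Ccr9 went with it at 0.74 for Rag1, 0.81 for Ebf1 and 0.85 for Cd79a. Il7r correlated with this set and Ccr9 at 0.65 (Cd79a) to 0.81 (Rag1), and with Dntt, Satb1 and Notch1 at 0.14 to 0.36. Myl10 fell in neither set, at 0.38 (Notch1) to 0.67 (Dntt) with Dntt, Satb1 and Notch1. With Rag1, Ebf1, Cd79a and Ccr9 it was at 0.31 (Ccr9) to 0.45 (Rag1). Between Dntt, Satb1 and Notch1 on one side and Rag1, Ebf1, Cd79a and Ccr9 on the other, r ran from -0.30 (Notch1 with Cd79a) to 0.20 (Rag1 with Satb1), and the rank correlation of the same pairs from -0.17 to 0.34. These are descriptions, chosen after the values were seen, over libraries that share a scaling factor among all their genes.

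The libraries behind this split can be named. Replicate 3 of LPS with antibody at 24 h had the highest Dntt, Satb1 and Notch1 of its group and the lowest Rag1, Ebf1, Cd79a and Ccr9. Replicate 3 of LPS with antibody at 72 h had the lowest Rag1, Il7r, Ebf1, Cd79a and Ccr9 of its group, with Satb1 and Notch1 close to replicate 2. Replicate 1 of that group had the lowest Dntt, Satb1, Notch1 and Myl10. The libraries numbered 3 of the 4 LPS groups were then left out. Against PBS, 9 members were called lower in LPS at 24 h, beside 2360 of 15188 genes tested. With antibody at 72 h 0 members were called lower than PBS, beside only 179 of 15188 genes. Against LPS alone at 72 h, 2 members were called lower with antibody, beside 821 of 15188 genes.

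**Figure D4:**
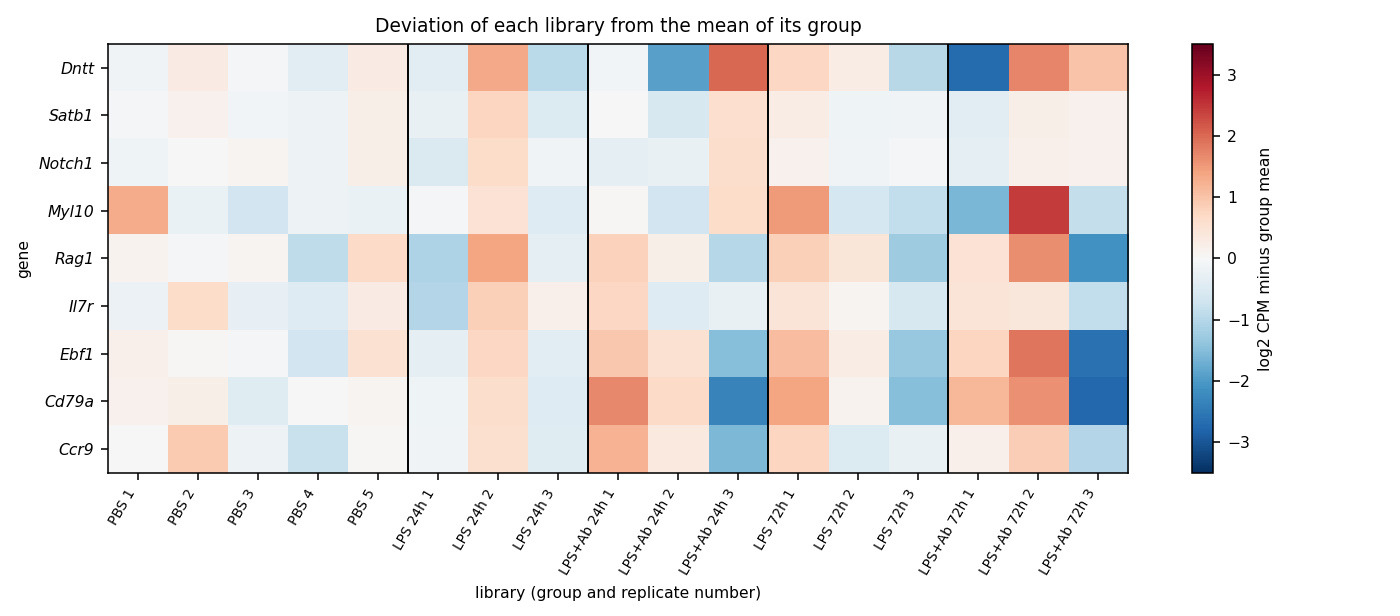
Deviation of each library (columns) from its group mean on the log2 CPM scale for the 9 members (rows), red above and blue below the mean. Replicate 3 of LPS with antibody at 24 h is above its group mean for Dntt, Satb1 and Notch1 and below it for Rag1, Ebf1, Cd79a and Ccr9.

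The genes most like each member across the 17 libraries were ranked by Pearson correlation of log2 CPM among 12453 genes, a measure carried mainly by the differences between groups. Dntt was most like Cd96 (r = 0.984), Arpp21 and Flt3 (0.98 each). For Cd79a the values included Pax5 (0.979) and Vpreb3 (0.975), and Ebf1 was most like Cplx2 and Pou2af1 (0.971 each) and Lef1 (0.959). Satb1 was most like Cdk19 (0.989) and Notch1 most like Sft2d2 (0.983). Rag1 was most like Gimap5 (0.936), Il7r most like Ptafr (0.968), Myl10 most like N4bp3 (0.962) and Ccr9 most like Atp1b1 (0.95), with Siglech the third at 0.941.

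Levels per kilobase of exon in PBS gave an order of the members. The length used was the union of all GENCODE M21 exons of a gene, 19027 bases for Satb1 and 4663 for Il7r. Which transcripts were expressed was not tested, so the order depends on these lengths. Dntt led at 341.5 CPM per kb, followed by Myl10 at 96.7 ± 63.4 (SD, n = 5), Cd79a at 16.96 ± 2.64 and Notch1 at 13.9 ± 1.53. Il7r (8.20 ± 2.74) and Satb1 (8.004 ± 0.931) did not differ beyond their spread on this scale, while their mean levels before division by length were 38.3 and 152 CPM. Rag1 was at 4.52 ± 1.63, and Ccr9 (1.10 ± 0.494) and Ebf1 (1.00 ± 0.289) closed the order without differing beyond their spread.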

How the data were processed

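Reads were counted per gene by the submitters. The deposited table holds raw counts, and the submitters' processing notes name HISAT2 2.2.0, Subread, featureCounts 2.1.1, R 4.3.2, DESeq2 and GRCm38, with the strand setting and annotation not given in the sources used here. From those counts, 17 libraries in 5 groups were fitted together with group means in edgeR 4.0.16 (quasi-likelihood test, TMM scaling, filterByExpr with a minimum count of 10; R 4.3.3). That gave 14920 genes holding 99.9% of counts, with Benjamini-Hochberg adjustment over all of them and a threshold of 0.05. CPM is the count scaled by the library total and TMM factor, and log2 CPM used a prior count of 2. SE is the log2 change divided by the root of the F statistic. The script was tested on simulated data. Alternatives were other scalings, DESeq2 1.42.0, limma 3.58.1 voom, no filter, only the compared groups, a replicate block and leaving out each library. Coordinates and gene overlaps are from GENCODE M21 (GRCm38), and promoters from RefSeq.

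The members and lists were chosen with earlier results of these data known. All members are named. From each list of other pathway genes, up to 4 called genes with the smallest adjusted p are named per comparison described, besides exceptions stated as such; Flt3, Rag2 and Siglech levels were added after their values were seen. For likeness, up to 3 genes with the highest r and a mean log2 CPM of at least 1 were ranked per member. Replicate numbers are in the labels: in LPS at 24 h against PBS, same-numbered libraries deviated together (r = 0.191, 0.188 and 0.158). The replicate block was therefore read as a pairing there, but the values given above are from the fit without a block. With the block no member call was lost there, and the smallest edgeR adjusted p of a member was 0.00511, against 0.000487 without it. In the other comparisons at least 1 pair was at or below 0.1, so the block was not read as a pairing there. The largest correlations of the series were among these. Between the antibody groups of 24 h and 72 h, r was 0.723 for replicate 1, -0.0217 for replicate 2 and 0.697 for replicate 3. What links those libraries was not tested. Total counts bound the precision of low genes, and Poisson intervals cover counting error only. Some results are not reported here because they name items withheld for evaluation.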

Additional observations from a re-analysis of the deposited data

Results flagged for a closer look

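Myl10 in PBS had 1 library far from the others: replicate 1 was at 251.5 CPM, the next at 90.95 CPM, and the gap was 0.858 of the group's whole range, above the 95% critical value of 0.71 for 5 libraries. Chance passes this limit in about 1 in 20 groups.

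For Il7r the antibody libraries lay on opposite sides of the LPS mean at the 2 times, although neither difference passed (edgeR adjusted p = 1 at 24 h and 0.273 at 72 h) and the libraries of the groups overlapped at both times. All 3 libraries with antibody at 24 h lay above the mean of LPS at 24 h, and all 3 with antibody at 72 h lay below the mean of LPS at 72 h. The interaction estimate was -1.73 on the log2 scale (-1.727, SE 0.663), and it did not pass (edgeR adjusted p = 0.124).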

How the results depend on the processing

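The 25 called member results given with a test kept their call in 170 of 175 fits with other planned settings, 129 of 186 fits that left out 1 library and 34 of 43 fits with the 2 settings added after seeing the data (libraries numbered 3 of the LPS groups, or PBS replicates 4 and 5, left out). Of 117 calls of other pathway genes, 40 held in every fit that left out 1 library. No called member changed direction under these settings. Among uncalled members whose values the report gives, those that did, as ranges over fits leaving out 1 library, were, in LPS at 72 h against PBS, Dntt (-0.15 to 0.57), Rag1 (-0.66 to 0.15, and 0.16 without the libraries numbered 3) and Notch1 (-0.052 to 0.092), and, between the 72 h groups, Ebf1 (-1.46 to 0.21), Cd79a (-1.02 to 0.48), Myl10 (-3.29 to 0.072) and Ccr9 (-0.83 to 0.14, and 0.11 with limma voom). In the comparisons given only as counts of members below 0, leaving out 1 library moved the count from 1 to between 0 and 4 for the antibody at 24 h, from 0 to at most 2 between the antibody groups, and from 9 to at least 6 in the interaction.

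Counts of genes called moved more. LPS with antibody at 24 h against PBS gave 3605, 1721 with the replicate block, 1730 without PBS replicates 4 and 5, and 877 to 3420 leaving out 1 library. LPS at 72 h against PBS gave 3, 178 with DESeq2, 99 with only the groups compared, 2170 with voom, 0 with the block and with either added setting, and 0 to 3 leaving out 1 library. With antibody at 72 h against PBS it was 1975, 374 with the block, 3053 with voom, 502 without the libraries numbered 3, 548 without PBS replicates 4 and 5, and 583 to 2066. Between the 72 h groups it was 2256, 1123 with only the groups compared, 4433 with voom, and 769 to 2279. The interaction gave 947, 1709 with DESeq2, 617 with no filter, 286 with only the groups compared, 333 with the block, 1585 with voom, 0 without the libraries numbered 3, and 231 to 1544. LPS at 24 h against PBS gave 5616, and 3361 to 5443 leaving out 1 library. The cause was not tested. DESeq2 called 1 gene with antibody at 24 h against LPS and 2 between the antibody groups.

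Upper-quartile scaling moved the median of all genes in LPS at 24 h against PBS from -0.03 to -0.16 and the calls from 2849 higher and 2767 lower to 2030 and 3490. It reversed no member. With the replicate block Dntt with antibody at 24 h against PBS (edgeR adjusted p = 0.0932), Notch1 at 72 h against PBS (0.0708) and Satb1 between the 72 h groups (0.0594) lost their calls, while Cd79a with antibody at 24 h passed (0.0474). Low counts limit the precision of Ebf1, Cd79a and Ccr9, with single libraries at 3 to 9 counts.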
